A study of Mus musculus with 24 samples.

Results

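A set of 10 receptor genes of the CD28 family and of the wider group of immune checkpoints were followed through 4 states of mouse CD4 T cells. They were taken by symbol: Cd28, Icos, Ctla4, Pdcd1, Btla, Lag3, Havcr2, Tigit, Cd160 and Cd226, which are 10 of the 23420 genes counted. RNA was sequenced in bulk from 24 libraries, 6 in each group. All 4 groups had the genotype given as OT2Nur77GFP+/-, on a C57BL/6 background. It combines Tg(TcraTcrb)425Cbn, the OT-II receptor transgenes that give CD4 T cells 1 receptor for an ovalbumin peptide, with Tg(Nr4a1-EGFP/cre)820Khog. In the latter the Nr4a1 (Nur77) promoter drives a fluorescent reporter in every group, controls included, so no group was free of it. Naive cells came from the spleen. Activated naive cells had 6 hours of a stimulus that the labels do not name. TH1 effector cells, the helper cells that make interferon gamma, had been differentiated for 5 days in culture, and reactivated TH1 cells had then met antigen-loaded macrophages for 6 hours. The ages are not given, and there is no group of TH1 cells kept with macrophages without antigen.

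CD28 gives a naive T cell the second signal that it needs beside its antigen receptor, by binding CD80 and CD86 on the antigen-presenting cell. CTLA-4 takes the same ligands with higher affinity and restrains the cell, and ICOS is a further costimulatory relative that appears after activation. PD-1, BTLA, LAG-3, TIM-3, TIGIT and CD160 are receptors best known as brakes that accumulate on activated or chronically stimulated T cells, whereas CD226 is an activating receptor that shares its ligands with TIGIT.

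Between 18457653 and 34262645 counts per library were given to genes. Levels are given as CPM, counts scaled to a common library size with TMM factors, as mean ± SD or as the lowest, median and highest of 6 libraries. The summed level of 8 CD4 T cell markers averaged 4424, 4579, 2751 and 3019 CPM in naive, activated naive, TH1 effector and reactivated TH1 libraries. The summed level of 6 regulatory T cell markers averaged 26.6, 55.1, 128 and 126 CPM in the same order. In TH1 effector against naive libraries 3 of the 6 were higher and 0 lower, beside 44.6% and 40.3% of all genes tested. On reactivation 2 of the 6 were higher and 3 lower, beside 39.9% and 39.8%, so the similar sums hide opposite changes. Foxp3, which defines regulatory T cells, stayed between 0.391 and 1.02 CPM on average. Regulatory T cells also express Ctla4, Icos and Tigit, and their part in these levels was not tested. Summed over 14 macrophage markers the ranges were 8.45 to 13.5, 10.5 to 12.3, 4.70 to 6.64 and 14.0 to 19.97 CPM. All 3 complement genes among them, C1qa, C1qb and C1qc, were at 0 in TH1 effector libraries and averaged 0.313, 1.503 and 0.900 CPM in reactivated TH1 libraries. The macrophage markers did not all move together: of the 11 that were tested, 5 were higher, 2 were lower and 4 did not pass on reactivation. No label says that the 6 libraries of 1 group are separate animals or cultures, so the p-values speak of the spread from library to library, which may be technical. Adjusted p-values are from edgeR's quasi-likelihood test with Benjamini-Hochberg adjustment over 12584 genes, with a threshold of 0.05, and all 10 receptor genes were among those tested.

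Each cell state had its own mix of these receptors. To compare genes with each other, CPM was divided by the length of exon in kilobases, taken over all annotated coding transcripts. The transcripts present in these cells were not determined, and the order of genes depends on that length. Summed over the 10 genes, naive libraries had 146 ± 19.1 CPM per kilobase and activated naive libraries 464 ± 35.6 (mean ± SD, n = 6). The sum was 721 ± 60.5 for TH1 effector and 815 ± 71.4 for reactivated TH1 libraries. In naive cells Cd28 made up 50.6% of that sum, Btla 33.5% and Cd226 8.72%. After 6 hours of stimulation Cd28 made up 33.0% ± 10.9, Pdcd1 24.4% ± 11.8, Btla 23.5% and Icos 13.7%. The order differed between those libraries: Pdcd1 led in numbers 1 and 4, with 40.5% and 37.2%, and Cd28 in the other 4, where Pdcd1 came below Btla. TH1 effector cells were led by Ctla4 with 43.0%, ahead of Cd28 with 23.3% and Icos with 17.8%. Reactivated TH1 cells were led by Lag3 with 28.5%, followed by Cd28 with 24.3% and Btla with 11.2%. In CPM, not divided by length, Cd28 was the higher on average: 734 against 598 CPM for Ctla4 in TH1 effector libraries. For reactivated TH1 libraries the means were 854 CPM for Cd28 and 464 CPM for Lag3. Activated naive numbers 1 and 4 had 375 and 443 CPM of Cd28, and 346 and 365 CPM of Pdcd1.

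**Figure D1:**
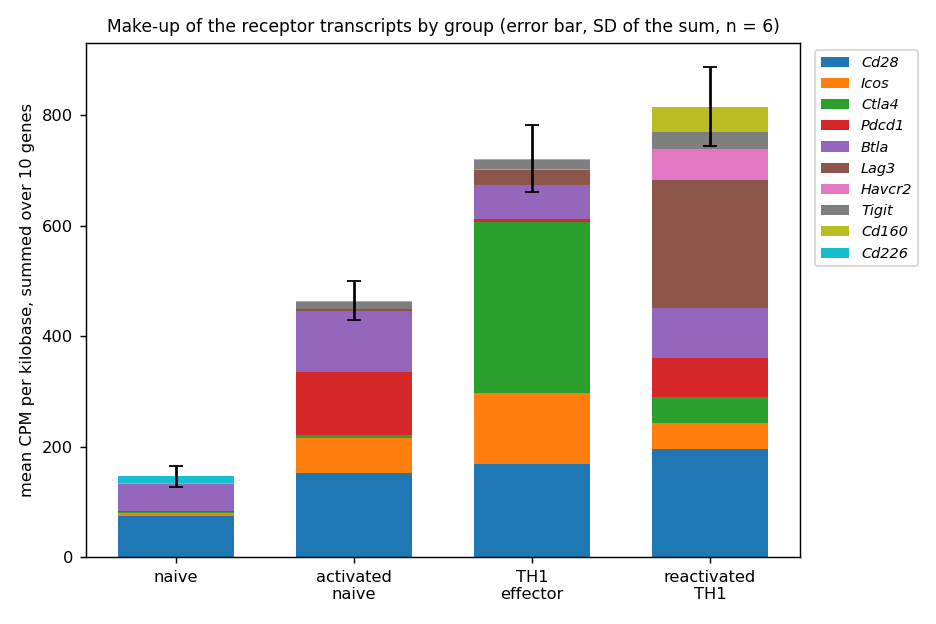
Mean CPM per kilobase of exon of the 10 receptor genes, stacked, in the 4 groups; the error bar is the SD of the sum over 6 libraries. Cd28 and Btla fill most of the naive bar, Ctla4 is the largest part of the TH1 effector bar (43.0%) and Lag3 of the reactivated TH1 bar (28.5%).

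Counted over the genes, all 10 differed between activated naive and naive libraries, 9 higher and Cd226 lower, where 81.9% of all genes tested differed, 41.3% higher and 40.5% lower. Between TH1 effector and naive libraries 8 were higher and 2, Cd160 and Cd226, lower, beside 84.9% of all genes (44.6% higher, 40.3% lower). Between reactivated TH1 and TH1 effector libraries 6 were higher and 3 lower, beside 79.7% of all genes (39.9% higher, 39.8% lower). In reactivated TH1 against naive libraries 9 were higher and Cd226 was lower, beside 87.6% (47.9% higher, 39.8% lower). Most genes of these cells thus passed the test in each of these comparisons, and a count of receptor genes near that share is not particular to them. The median log2 fold change of the 10 genes was 2.65 in activated naive against naive libraries and 5.42 in reactivated TH1 against naive libraries, against 0.0046 and 0.15 over all genes tested. These medians are a description and no test of the set, since the genes were chosen with earlier results of these data known. Havcr2, Tigit and Lag3, with 5, 21 and 35 counts in naive libraries, were tested because of their levels in other groups.

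**Figure D2:**
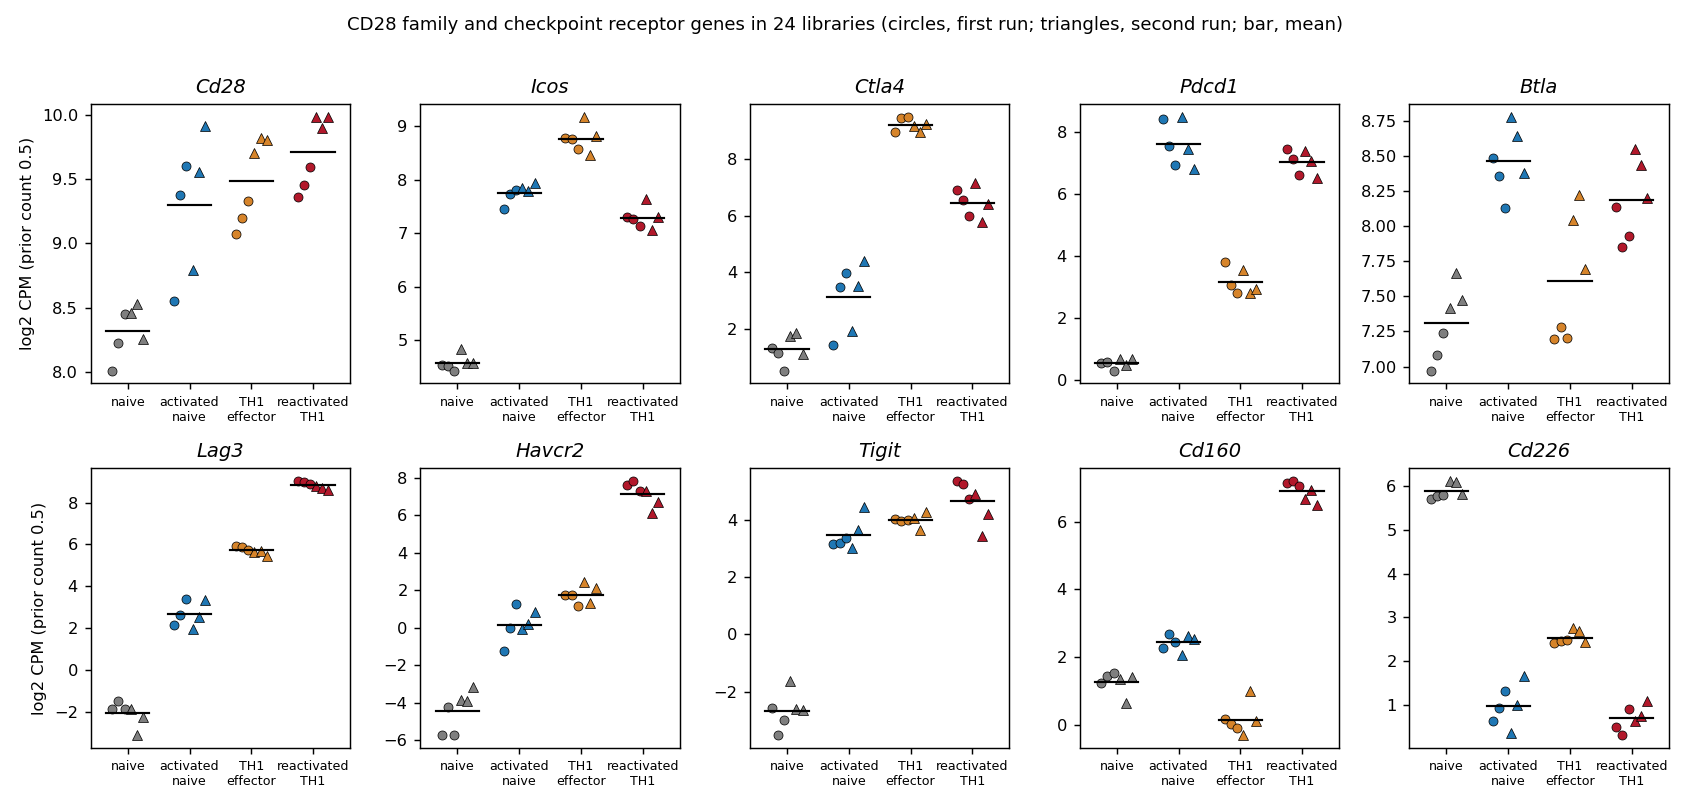
Level of each receptor gene in each of the 24 libraries, as log2 CPM with a prior count of 0.5, each panel on its own axis; circles are the first run, triangles the second and the bar is the mean of 6 libraries. Cd226 is the gene that is highest in naive libraries, Ctla4 and Icos peak in TH1 effector libraries, and Lag3, Havcr2 and Cd160 peak in reactivated TH1 libraries.

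Cd28, Ctla4 and Icos lie side by side on mouse chromosome 1 in mm10 (GENCODE M21), in this order and on the same strand. Cd28 spans chr1:60716800-60773359, Ctla4 begins 113640 bases further on at chr1:60887000-60915832, and Icos 62094 bases after that at chr1:60977927-61000320. Their proteins share an ancestral plan, and 2 short coding stretches show where costimulator and brake are alike and where they part. The first encodes the loop that touches the ligand. It is shown in capitals with its flanks for codons 118 to 123 of 218 in Cd28 (chr1:60763275-60763292), 134 to 139 of 223 in Ctla4 (chr1:60912713-60912730) and 114 to 119 of 200 in Icos (chr1:60993983-60994000).
Cd28 loop: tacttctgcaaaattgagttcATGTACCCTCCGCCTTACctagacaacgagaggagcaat
Ctla4 loop: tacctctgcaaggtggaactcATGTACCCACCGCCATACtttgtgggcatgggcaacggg
Icos loop: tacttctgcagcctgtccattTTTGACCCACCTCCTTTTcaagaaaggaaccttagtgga

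Cd28 and Ctla4 encode the same loop, which binds CD80 and CD86, and Icos a different one for its own ligand. The second stretch encodes the tyrosine motif of the cytoplasmic tail to which phosphoinositide 3-kinase binds once it is phosphorylated, and by which CTLA-4 is also taken up from the surface. It is shown because this motif is the start of the signalling for which a gene list is described further on. The capitals mark codons 189 to 192 of Cd28 (chr1:60769693-60769704), 181 to 184 of Icos (chr1:60995560-60995571) and 201 to 204 of Ctla4 (chr1:60914646-60914657).
Cd28 tail: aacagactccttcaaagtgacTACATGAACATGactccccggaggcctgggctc
Icos tail: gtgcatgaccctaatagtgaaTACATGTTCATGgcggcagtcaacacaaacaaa
Ctla4 tail: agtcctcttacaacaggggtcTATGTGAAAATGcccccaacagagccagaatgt

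Cd28, the costimulator itself, was already abundant in naive cells and lower there than in the other 3 states. Its levels had a lowest, median and highest value of 257, 328 and 369 CPM in naive libraries and 375, 709.7 and 965 CPM in activated naive libraries. They were 538, 739 and 907 CPM in TH1 effector and 657, 866 and 1016 CPM in reactivated TH1 libraries. Every naive library lay below every other library, while the other 3 groups overlapped. Cd28 was 2.05-fold higher in activated naive than in naive libraries (log2 fold change 1.04, SE 0.24, adjusted p = 2.65e-06) and 2.24-fold higher in TH1 effector libraries (1.16, SE 0.09, adjusted p = 5.18e-07). Between reactivated TH1 and TH1 effector libraries the log2 difference was 0.22 (SE 0.06, adjusted p = 0.196) and did not pass. It passed when the fit held only those groups (adjusted p = 0.00313). The SE rests on the groups compared alone, whereas the main p-value uses a spread estimated over all 4 groups. For every library number the reactivated TH1 library had more Cd28 than the TH1 effector library, though the labels do not say what numbers share. TH1 effector and activated naive libraries differed by 0.13 (SE 0.23, adjusted p = 0.457). Reactivated TH1 libraries were above activated naive libraries by 0.35 (SE 0.23, adjusted p = 0.0473), a call that was kept in 5 of 18 other settings, over which the adjusted p ran from 0.0133 to 0.504.

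Ctla4, the brake on CD28, followed another course and was by far highest in TH1 effector cells. The lowest, median and highest levels were 1.42, 2.35 and 3.602 CPM in naive libraries and 2.72, 11.3 and 21.1 CPM in activated naive libraries. In TH1 effector libraries they were 496, 586 and 719.9 CPM, and in reactivated TH1 libraries 54.9, 88.7 and 141 CPM. No TH1 effector library overlapped with a library of another group, whereas the lowest activated naive library lay within the naive range. Between activated naive and naive libraries Ctla4 was 4.36-fold higher (log2 fold change 2.12, SE 0.55, adjusted p = 0.000128), and between TH1 effector and naive libraries 241.2-fold higher (7.91, SE 0.19, adjusted p = 9.05e-13). On reactivation Ctla4 fell 6.48-fold (log2 fold change -2.70, SE 0.26, adjusted p = 3.32e-07). The fall left it above activated naive libraries, by 3.09 on the log2 scale (SE 0.58, adjusted p = 1.14e-07). In bulk RNA, fewer cells with a transcript and less transcript per cell cannot be told apart, here or for the genes that follow.

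Icos, the costimulator that activated cells gain, moved like Ctla4 on reactivation. Its lowest, median and highest levels were 21.6, 23.6 and 28.6 CPM in naive libraries and 175, 222 and 245 CPM in activated naive libraries. TH1 effector libraries had 352, 438 and 579.7 CPM, and reactivated TH1 libraries 134, 156 and 198 CPM. Only the activated naive and reactivated TH1 ranges overlapped. Icos was 9.05-fold higher in activated naive than in naive libraries (log2 fold change 3.18, SE 0.07, adjusted p = 1.39e-19) and 2.02-fold higher again in TH1 effector libraries (1.02, SE 0.12, adjusted p = 2.92e-10). It fell 2.80-fold on reactivation (log2 fold change -1.49, SE 0.14, adjusted p = 3.78e-13), to slightly below activated naive libraries (log2 difference -0.47, SE 0.10, adjusted p = 7.79e-05). So the 3 neighbours on chromosome 1 were all higher in TH1 effector than in naive cells. On reactivation Ctla4 and Icos fell, while the change of Cd28 did not pass in the fit of all 4 groups.

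Pdcd1 and Btla encode PD-1 and BTLA, inhibitory relatives of CD28 whose tails recruit tyrosine phosphatases. Pdcd1 lies at chr1:94038305-94052553 on the minus strand, far from the cluster above, and Btla at chr16:45224315-45257670 on the plus strand. The coding stretch printed for both holds their switch motif, the tyrosine motif in the tail through which PD-1 binds the phosphatase SHP-2. BTLA carries a motif of the same kind. Capitals mark codons 246 to 251 of 288 in Pdcd1 (chr1:94039419-94039436) and 297 to 302 of 306 in Btla (chr16:45250565-45250582), where the coding sequence ends soon after.
Pdcd1 switch: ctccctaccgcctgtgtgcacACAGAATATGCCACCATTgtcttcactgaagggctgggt
Btla switch: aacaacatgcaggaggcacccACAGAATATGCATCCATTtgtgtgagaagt

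Pdcd1 tracked recent stimulation, being low in both resting states and high in both stimulated states. Naive libraries had 1.21, 1.45 and 1.60 CPM as lowest, median and highest level, and activated naive libraries 113, 184 and 365 CPM. TH1 effector libraries had 7.01, 7.95 and 14.0 CPM, and reactivated TH1 libraries 92.0, 138 and 178 CPM. No stimulated library overlapped with an unstimulated one, whereas the stimulated groups overlapped with each other. Pdcd1 was 152-fold higher in activated naive than in naive libraries (log2 fold change 7.25, SE 0.33, adjusted p = 8.20e-14), a larger change than in all but 0.842% of the genes tested. Reactivation raised it 14.6-fold above TH1 effector libraries (3.87, SE 0.26, adjusted p = 1.43e-10), which themselves stood 6.43-fold above naive libraries (2.69, SE 0.20, adjusted p = 1.10e-06). Reactivated TH1 libraries stayed below activated naive libraries, by -0.69 on the log2 scale (SE 0.37, adjusted p = 0.0193). That last difference did not pass within the first run (adjusted p = 0.136) or the second (adjusted p = 0.119).

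Btla, like Cd28, was present in all 4 states, and its level was highest after stimulation of naive cells. The lowest, median and highest levels were 125, 160.9 and 203 CPM in naive libraries and 279.6, 346 and 440.1 CPM after stimulation. TH1 effector libraries had 147, 181 and 299 CPM, and reactivated TH1 libraries 231, 288 and 374 CPM. Only the naive range was clear of the activated naive and reactivated TH1 ranges. Btla was 2.24-fold higher in activated naive than in naive libraries (log2 fold change 1.16, SE 0.10, adjusted p = 8.21e-11) and 1.48-fold higher in reactivated TH1 than in TH1 effector libraries (0.57, SE 0.10, adjusted p = 1.53e-05). TH1 effector libraries were above naive libraries by 0.31 on the log2 scale (SE 0.10, adjusted p = 0.00592). This call was lost without number 4 of every group (adjusted p = 0.0838), without numbers 1 and 4 (0.101), without a term for the run (0.0697) and in the first run alone (0.147). In TH1 effector libraries Btla averaged 150.0 CPM in the first run and 257 CPM in the second. B cells also express Btla, and 7 B cell markers summed to between 2.97 and 29.3 CPM in TH1 effector libraries, against 1.10 to 4.09 CPM in naive libraries. Their part in the Btla level was not tested.

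Lag3 and Havcr2 encode LAG-3, a CD4-related receptor that binds MHC class II, and TIM-3, a receptor of the TIM family known from TH1 cells. Lag3 lies at chr6:124904361-124911705 and Havcr2 at chr11:46454935-46481255. Mean levels of both were higher in each group than in the one before, in the order naive, activated naive, TH1 effector and reactivated TH1. This is an order by level and not a time course.

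Naive libraries held 35 counts of Lag3 in all, 0.0961, 0.252 and 0.342 CPM as lowest, median and highest level. Activated naive libraries had 3.82, 6.00 and 10.5 CPM, TH1 effector libraries 43.6, 52.5 and 61.2 CPM, and reactivated TH1 libraries 392, 462 and 527 CPM. The 4 groups did not overlap. Each difference between adjacent groups in this order passed the test. On the log2 scale activated naive libraries were above naive libraries by 4.81 (SE 0.34, adjusted p = 8.07e-13). TH1 effector libraries were above activated naive libraries by 2.97 (SE 0.28, adjusted p = 8.58e-14). Reactivated TH1 libraries were above TH1 effector libraries by 3.13 (SE 0.06, adjusted p = 2.03e-14), an 8.73-fold rise.

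Havcr2 was all but absent from naive cells, with 5 counts over the 6 libraries and 0 counts in 2 of them. Levels in activated naive libraries were 0.403, 1.04 and 2.35 CPM, in TH1 effector libraries 2.22, 3.28 and 5.45 CPM, and in reactivated TH1 libraries 69.5, 156.8 and 227 CPM. Reactivated TH1 libraries lay far above all others, while the highest activated naive library reached into the TH1 effector range. Reactivation raised Havcr2 43.2-fold (log2 fold change 5.43, SE 0.27, adjusted p = 5.51e-13), more than in all but 0.906% of the genes tested. TH1 effector libraries exceeded activated naive libraries by 1.49 (SE 0.43, adjusted p = 0.000714), where 86.9% of all genes differed, 45.6% being higher and 41.2% lower, and 5 of the 10 receptor genes were higher and 3 lower. From naive to activated naive libraries the log2 difference was 5.01 (SE 0.47, adjusted p = 1.68e-05), a size that rests on those 5 naive counts. In reactivated TH1 libraries Havcr2 averaged 193 CPM in the first run and 111 CPM in the second. Within the first run alone the log2 difference on reactivation was 6.02 and within the second run 4.79. Macrophages also express Havcr2, and the 14 macrophage markers summed to 4.70 to 6.64 CPM in TH1 effector and 14.0 to 19.97 CPM in reactivated TH1 libraries. On reactivation 5 of the 11 tested macrophage markers were higher and 2 were lower. The part of macrophages in the Havcr2 level was not tested.

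Tigit and Cd226 encode the opposed receptors for the ligand CD155, TIGIT as a brake and CD226 as an activator. Stimulation of naive cells raised Tigit and lowered Cd226. Reactivation of TH1 cells lowered Cd226 too, while a rise of Tigit was called in the main fit and in 14 of 18 other settings. Tigit lies at chr16:43648867-43664146, and Cd226 is on chromosome 18.

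Tigit had 21 counts in all naive libraries together and was switched up by stimulation. Its lowest, median and highest levels were 0.0684, 0.142 and 0.306 CPM in naive and 8.12, 9.60 and 21.7 CPM in activated naive libraries. They were 12.54, 16.2 and 19.4 CPM in TH1 effector and 10.9, 27.8 and 40.9 CPM in reactivated TH1 libraries. The naive libraries stood apart, and the other groups overlapped. Tigit was 78.5-fold higher in activated naive than in naive libraries (log2 fold change 6.30, SE 0.30, adjusted p = 9.96e-12), and 109-fold higher in TH1 effector libraries (6.76, SE 0.23, adjusted p = 2.19e-12). The further rise on reactivation was 1.68-fold (0.75, SE 0.25, adjusted p = 0.0107). It was lost without number 1 of every group (adjusted p = 0.0615), without number 2 (0.0593), without numbers 1 and 4 (0.159) and in the second run alone (0.528). Reactivated TH1 libraries averaged 35.01 CPM in the first run and 19.6 CPM in the second. TH1 effector and activated naive libraries differed by 0.47 (SE 0.23, adjusted p = 0.0977), which did not pass, although it did in 6 of 18 other settings, for example without number 6 (0.0119) or number 5 (0.0426).

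Cd226 was the one gene of the 10 with its highest level in naive cells. Naive libraries had 52.5, 55.6 and 69.4 CPM, activated naive libraries 1.27, 1.94 and 3.14 CPM, TH1 effector libraries 5.34, 5.54 and 6.74 CPM, and reactivated TH1 libraries 1.23, 1.60 and 2.10 CPM. Only the stimulated groups overlapped with each other. Stimulation of naive cells lowered it 29.0-fold (log2 difference -4.86, SE 0.22, adjusted p = 8.18e-21). Reactivation of TH1 cells lowered it too (-1.85, SE 0.12, adjusted p = 1.18e-11). TH1 effector libraries were 10.2-fold below naive libraries (-3.34, SE 0.07, adjusted p = 3.16e-18) and 2.85-fold above activated naive libraries (1.51, SE 0.22, adjusted p = 2.37e-10). Reactivated TH1 and activated naive libraries differed by -0.34 (SE 0.24, adjusted p = 0.0578), which passed in 5 of 18 other settings, among them without number 4 of every group (adjusted p = 0.00961).

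Cd160 encodes a receptor that, like BTLA, binds the TNF receptor family protein HVEM, the product of Tnfrsf14. It lies at chr3:96798763-96829351. Naive libraries had 1.54, 2.61 and 2.88 CPM as lowest, median and highest level, and activated naive libraries 4.14, 5.59 and 6.40 CPM. TH1 effector libraries had 0.798, 1.03 and 2.01 CPM, and reactivated TH1 libraries 88.8, 127 and 147 CPM. Every reactivated TH1 library was far above every other library, and only naive and TH1 effector libraries overlapped. Reactivation raised Cd160 108-fold (log2 fold change 6.75, SE 0.21, adjusted p = 1.74e-20), a larger change than in all but 0.461% of the genes tested. Stimulation of naive cells raised it 2.21-fold (1.15, SE 0.17, adjusted p = 4.80e-07), and TH1 effector libraries were 2.18-fold below naive libraries (-1.13, SE 0.24, adjusted p = 8.51e-06). Exons of Pdzk1 overlap with those of Cd160 on the other strand. Since the strand setting of the counting is not known, reads of the pair cannot be told apart where the exons overlap. Pdzk1 averaged 0.569 CPM in reactivated TH1 libraries, with 98 counts beside 20716 of Cd160, and less elsewhere. The part of Pdzk1 in the Cd160 counts was not tested. CD8 T cells and NK cells carry CD160 too. The 8 markers of those cells summed to 9.23 to 19.3 CPM in reactivated TH1 libraries and 12.7 to 26.1 CPM in TH1 effector libraries. Of the 4 of them that were tested, 1 was higher and 1 lower on reactivation. Klra4 and Klra8 were at 0 in all 4 groups. The part of such cells in the Cd160 level was not tested.

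Receptors that share a ligand can be set against each other within a library. The ratio of Ctla4 to Cd28, both per kilobase of exon, had a median of 0.0190 in naive and 0.0359 in activated naive libraries. In TH1 effector libraries it was 1.81, with a range from 1.23 to 2.70, so that Ctla4 exceeded Cd28 per kilobase in each of the 6 libraries. In CPM, not divided by length, Ctla4 averaged 598 and Cd28 734 CPM there. After reactivation the ratio was 0.243 (0.129 to 0.410). The ratio of Tigit to Cd226 ran from 0.0117 in naive libraries over 30.2 in activated naive and 14.5 in TH1 effector libraries to 84.8 in reactivated TH1 libraries. Only in naive libraries was Cd226 the higher of that pair. For the HVEM receptors, Cd160 stood at a ratio to Btla of 0.0209, 0.0201, 0.00781 and 0.521 in the same order of groups. Btla thus remained the higher of the pair in all 24 libraries. Icos over Cd28 had medians of 0.0986, 0.389, 0.813 and 0.239.

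**Figure D3:**
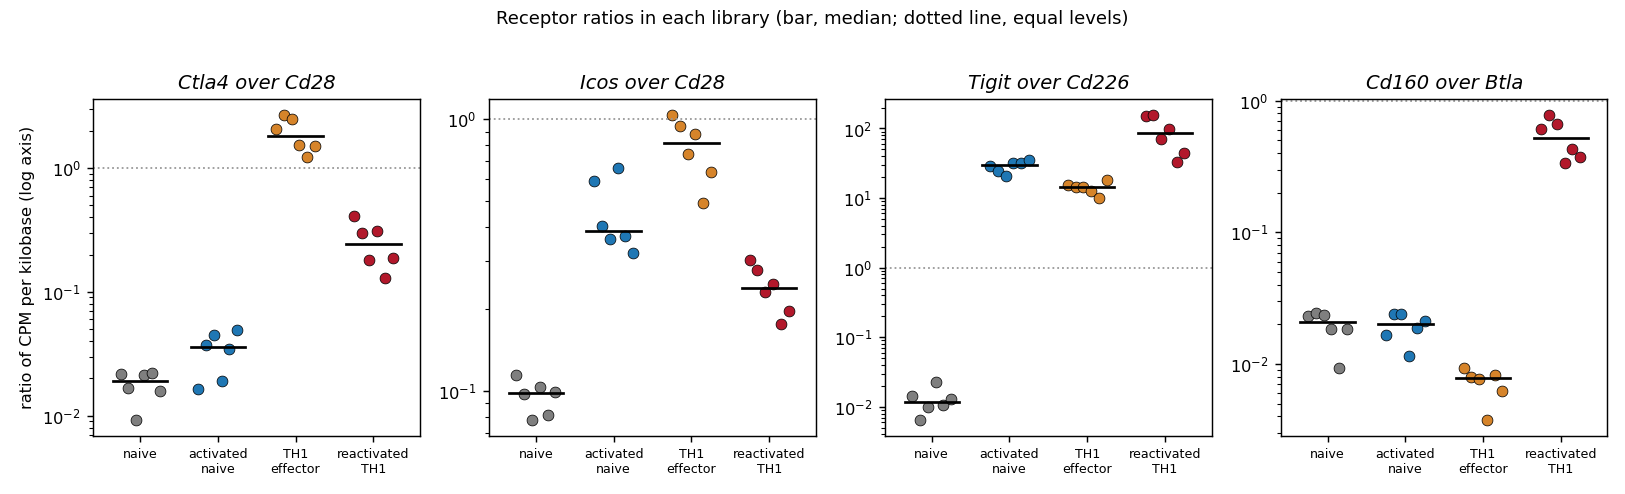
Ratio of CPM per kilobase of exon between receptors with shared ligands or signalling, one point per library, on a log axis; the bar is the median of 6 libraries and the dotted line marks equal levels. Ctla4 exceeds Cd28 only in TH1 effector libraries (1.23 to 2.70), and Tigit exceeds Cd226 in all groups but the naive one.

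The same stimulus time, 6 hours, gave different receptor responses in naive and TH1 cells, though the stimulus was not shown to be the same. The test of that difference, the TH1 response minus the naive response, was passed by 9 of the 10 genes, 2 higher and 7 lower, where 68% of all genes passed (34.3% higher, 33.7% lower). Cd160 had a response larger by 5.60 on the log2 scale in TH1 cells (SE 0.27, adjusted p = 3.42e-16). The value for Cd226 was 3.01 (SE 0.25, adjusted p = 1.51e-12), its fall being smaller in TH1 cells. Icos and Ctla4, which rose in naive cells and fell in TH1 cells, had differences of -4.66 (SE 0.16, adjusted p = 7.71e-19) and -4.82 (SE 0.61, adjusted p = 1.12e-07). Tigit, at -5.54 (SE 0.39, adjusted p = 9.48e-09), and Pdcd1, at -3.38 (SE 0.42, adjusted p = 1.43e-06), rose by a larger fold in naive cells. These differences compare folds, which depend on the starting level, and not gains in CPM. Mean Tigit went from 0.152 to 11.7 CPM in naive cells and from 16.1 to 27.3 CPM in TH1 cells. Mean Lag3 went from 0.231 to 6.80 CPM and from 53.0 to 464 CPM. Differences for Lag3, Cd28 and Btla were -1.69, -0.82 and -0.60 (adjusted p = 0.000843, 0.00262 and 0.000653). The call for Cd28 was lost in the first run alone (adjusted p = 0.0611) and without numbers 5 and 6 (0.116). Havcr2 had a difference of 0.43 (SE 0.55, adjusted p = 0.909), too imprecise to show whether its responses were alike.

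**Figure D4:**
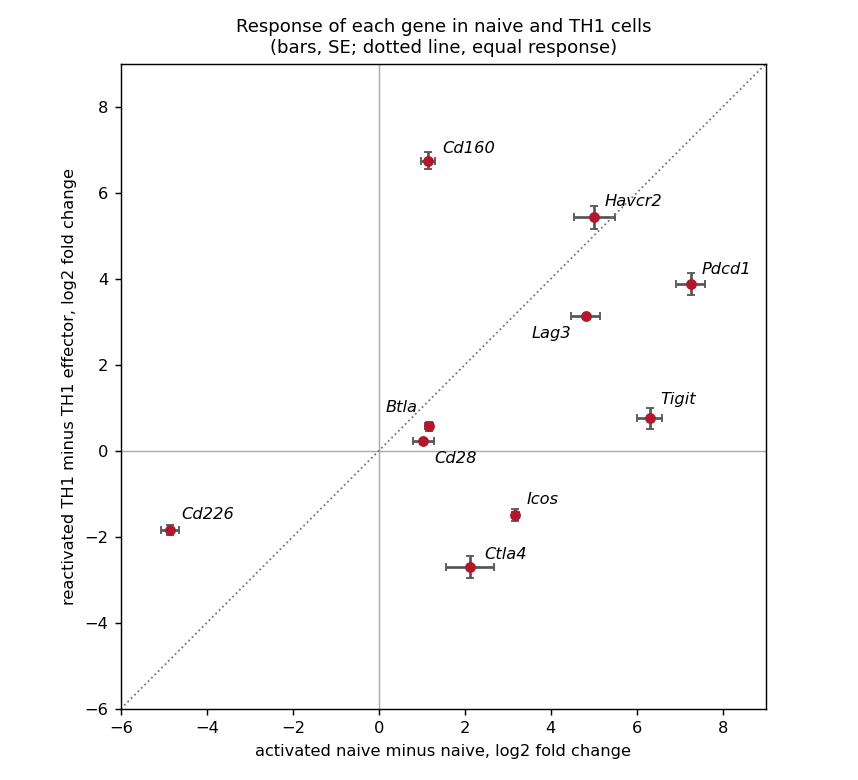
Response of each receptor gene in naive cells (horizontal axis, activated naive minus naive) and in TH1 cells (vertical axis, reactivated TH1 minus TH1 effector), both as log2 fold changes; bars are SE and the dotted line marks equal responses. Icos and Ctla4 lie below 0 on the vertical axis only, Cd226 is below 0 on both, and Cd160 stands highest on the vertical axis at 6.75.

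Set against activated naive cells directly, reactivated TH1 cells had higher levels of 6 genes and lower levels of 3, Icos, Pdcd1 and Btla, where 79.8% of all genes differed (43.4% higher, 36.4% lower). Havcr2 led the higher ones with a 121-fold difference (log2 6.92, SE 0.43, adjusted p = 5.90e-14), followed by Lag3 with 68.5-fold (6.10, SE 0.27, adjusted p = 2.02e-18) and Cd160 with 22.3-fold (4.48, SE 0.12, adjusted p = 7.09e-19). Tigit was 2.33-fold higher (1.22, SE 0.31, adjusted p = 0.000222), a call lost without numbers 1 and 4 (0.0602) and in the second run alone (0.299). Btla was lower by -0.28 on the log2 scale (SE 0.10, adjusted p = 0.0123), which was lost without number 2 (0.0701), without the run term (0.152) and in the second run alone (0.176).

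The 6 activated naive libraries differed among themselves in a regular way, seen after their values had been looked at. In each run, the library with the most Pdcd1 had the least Cd28, Ctla4, Lag3, Havcr2, Tigit, Cd160 and Cd226. These were number 1 of the first run and number 4 of the second. They had 346 and 365 CPM of Pdcd1, where the other 4 libraries had 113 to 190 CPM. Their Cd28 levels were 375 and 443 CPM against 667 to 965 CPM, and their Ctla4 levels 2.72 and 3.78 CPM against 11.1 to 21.1 CPM. The order went on within each run. From number 1 to 2 to 3, Pdcd1 fell from 346 over 190 to 123 CPM. From number 4 to 5 to 6 it fell from 365 over 179 to 113 CPM. Btla fell in the same order, while Cd28, Ctla4, Lag3, Havcr2, Tigit and Cd226 rose in it. Numbers 1 and 4 also had the most Nr4a1, with 11644 and 12799 CPM against 7142 to 7882 CPM. Nr4a1 is the gene of the reporter's promoter and an early target of antigen receptor signalling. Nr4a3 had 856 and 885 CPM there against 317 to 573 CPM. Irf4, another gene that responds to antigen receptor signals, was lowest there, with 2580 and 3026 CPM against 3696 to 3824 CPM. Whether the receptor levels depend on any of these was not tested. Without numbers 1 and 4 of every group, the log2 difference of Ctla4 between activated naive and naive libraries was 2.67 (adjusted p = 2.89e-06). Part of the pattern recurred in other groups. Numbers 1 and 4 also had the most Pdcd1 of their runs in TH1 effector libraries, 14.0 and 11.7 against 7.01 to 8.30 CPM. The same held in reactivated TH1 but not in naive libraries. Cd28 was lowest of its run in TH1 effector numbers 1 and 4, and in reactivated TH1 number 1 but not 4. Ctla4 was instead highest of its run in reactivated TH1 numbers 1 and 4. Whether the pattern belongs to the stimulus or to what the numbers share was not tested.

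**Figure D5:**
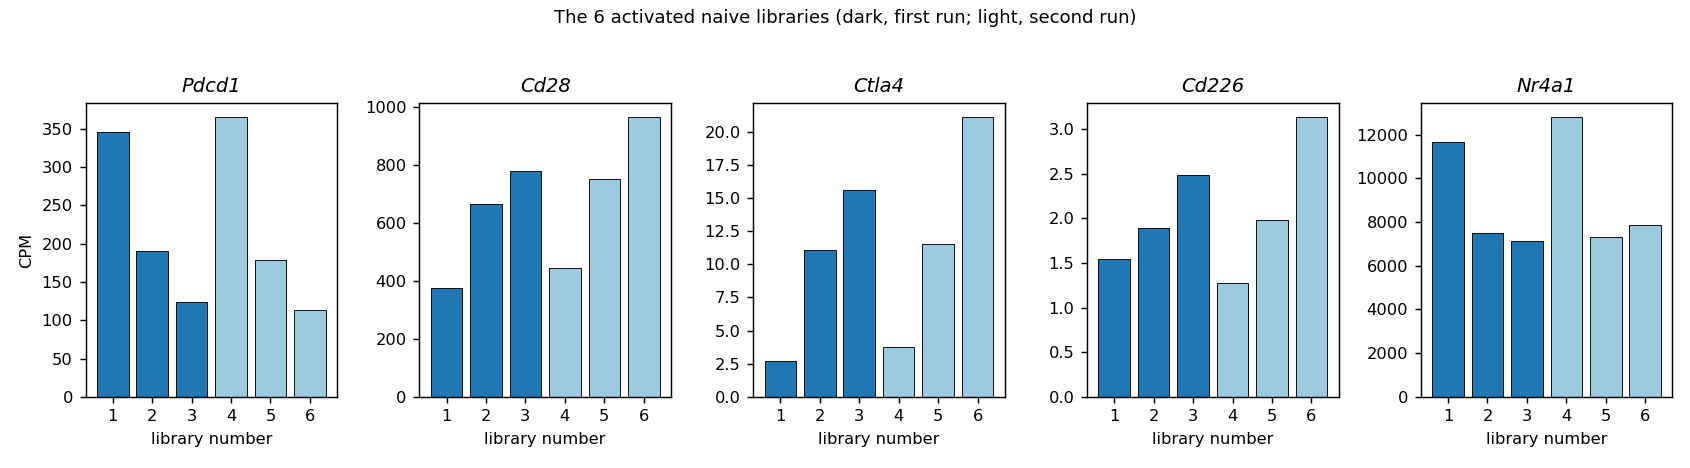
CPM of Pdcd1, Cd28, Ctla4, Cd226 and Nr4a1 in the 6 activated naive libraries, dark bars from the first run and light bars from the second, each axis starting at 0. Libraries 1 and 4 have the highest Pdcd1 (346 and 365 CPM) and Nr4a1 and the lowest Cd28, Ctla4 and Cd226 of their runs.

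The stretch before the start site is printed for 3 of the genes with contrasting responses, Pdcd1, Havcr2 and Ctla4. Each is the 250 bases before the start in RefSeq (GRCm38.p6, the assembly of mm10), read in the direction of the gene. The windows are chr1:94052554-94052803 (minus strand), chr11:46454681-46454930 and chr1:60908775-60909024 (plus strand). The window of Ctla4 lies inside the GENCODE M21 span given for that gene above. Its distances are counted from the RefSeq start, which lies further along the gene than the start of that span. Capitals mark matches, on either strand, to GGAAA, the core bound by NFAT factors, or TGANTCA, the AP-1 motif.
Pdcd1 promoter: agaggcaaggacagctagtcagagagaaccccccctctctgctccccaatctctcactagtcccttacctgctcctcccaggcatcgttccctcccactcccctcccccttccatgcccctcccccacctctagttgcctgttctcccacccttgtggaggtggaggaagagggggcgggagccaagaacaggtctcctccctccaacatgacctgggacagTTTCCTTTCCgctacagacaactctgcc
Havcr2 promoter: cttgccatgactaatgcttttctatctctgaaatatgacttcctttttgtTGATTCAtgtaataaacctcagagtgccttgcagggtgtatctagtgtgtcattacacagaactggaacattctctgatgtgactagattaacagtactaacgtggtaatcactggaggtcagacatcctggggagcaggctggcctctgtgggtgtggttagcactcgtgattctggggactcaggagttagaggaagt
Ctla4 promoter: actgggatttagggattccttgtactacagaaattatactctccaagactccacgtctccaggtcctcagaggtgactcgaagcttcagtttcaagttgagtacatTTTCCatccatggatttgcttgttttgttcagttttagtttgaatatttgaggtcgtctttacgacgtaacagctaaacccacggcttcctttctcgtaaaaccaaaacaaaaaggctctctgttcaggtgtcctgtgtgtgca

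Pdcd1 has 2 NFAT core matches, 28 to 24 and 23 to 19 bases before its start, which abut each other. Ctla4 has 1, 144 to 140 bases before its start, and Havcr2 has 1 AP-1 match, 200 to 194 bases before. Such matches are common: the NFAT core occurs in 55.6% and the AP-1 motif in 6.75% of 32851 promoter windows of this length. None of the 3 windows holds the NR4A motif AAAGGTCA (1.34% of windows), the interferon-stimulated response element (2.98%) or the T-box motif AGGTGTGA (1.12%). Tigit has 2 NFAT core matches as well. A match describes letters and does not show a bound factor.

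Of 17 genes of factors known to act on checkpoint genes, 12 rose and 5 fell in activated naive cells, with a median log2 fold change of 2.52. Here and for the lists that follow, the shares of all genes that passed the test were 81.9% in activated naive against naive, 84.9% in TH1 effector against naive and 79.7% in reactivated TH1 against TH1 effector libraries. A list with most of its genes called is near that background. Irf4, an activation factor scaled to receptor signal strength, rose from 6.62 ± 1.26 to 3442 ± 516 CPM, and Nr4a2 from 2.66 ± 1.26 to 953 ± 336 CPM. Tcf7, which keeps cells naive or memory-like, fell from 2355 ± 162.9 to 229 ± 146 CPM, and Prdm1, the gene of BLIMP-1, from 13.5 ± 0.905 to 3.76 ± 1.14 CPM. In TH1 effector against naive cells 9 rose and 5 fell, with Tbx21 (T-bet, 0.116 to 98.8 CPM) and Nfil3 (1.09 to 114 CPM) rising most. Tcf7 (2355 to 270 CPM) and Tox (54.4 to 13.5 CPM) fell most among genes with at least 10 CPM. On reactivation 9 rose and 6 fell. Eomes, a T-box relative of T-bet, rose from 1.08 ± 0.368 to 54.1 ± 14.2 CPM and Nr4a3 from 5.63 ± 5.14 to 199 ± 73.2 CPM. Nfatc2 (245 to 63.6 CPM) and Tox, a factor known from exhausted T cells (13.5 to 3.53 CPM), fell.

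Transcripts of several ligands were found in these libraries. Of 11 ligand genes, 3 rose and 5 fell in activated naive cells, 5 rose and 4 fell in TH1 effector against naive cells, and 4 rose and 4 fell on reactivation, with medians of 0.049, 0.39 and -0.020. Cd274, which encodes the PD-1 ligand PD-L1, rose from 99.5 ± 35.7 to 842 ± 156 CPM in activated naive cells and from 66.8 ± 20.4 to 206 ± 49.4 CPM on reactivation. Pdcd1lg2, the other PD-1 ligand, rose from 0.306 to 64.9 CPM and from 16.7 to 50.4 CPM. Cd80 was 0.0255 CPM in naive and 10.2 CPM in TH1 effector cells. Icosl, the ICOS ligand, fell from 13.3 ± 1.92 to 0.269 ± 0.0649 CPM on reactivation. Lgals9, which encodes a TIM-3 ligand, fell in both responses, from 169 to 37.8 CPM and from 71.4 to 34.3 CPM. Pvr, the gene of CD155 that TIGIT and CD226 share, was 112 CPM in naive and 37.0 CPM in activated naive cells, and Tnfrsf14 (HVEM) 59.5 CPM in naive and 21.4 CPM in TH1 effector cells. Macrophages carry several of these ligands, and their part in the reactivated TH1 values, beside a summed 14.0 to 19.97 CPM of macrophage markers, was not tested. On reactivation 5 of the 11 tested markers of macrophages were higher and 2 were lower.

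The LAG-3 ligand is MHC class II, and 7 genes of its pathway were followed. They were H2-Aa, H2-Ab1, H2-Eb1, H2-DMa, H2-DMb1, Cd74 and Ciita, not all of which encode the ligand itself. All 7 were higher in TH1 effector than in naive cells, with a median log2 difference of 4.25 against 0.057 over all genes tested, such as H2-Ab1 (0.466 ± 0.212 to 54.5 ± 20.7 CPM) and the invariant chain gene Cd74 (2.08 to 45.2 CPM). In activated naive cells 4 rose, among them H2-Aa (0.431 to 36.5 CPM), and 3 fell, among them H2-DMa (23.0 to 2.40 CPM). On reactivation Cd74 rose and 4 fell, H2-Ab1 to 15.2 ± 1.75 CPM. B cells, dendritic cells and macrophages carry MHC class II. From naive to TH1 effector libraries the mean sum of the 7 B cell markers went from 2.62 to 10.5 CPM, with 29.3 CPM in the highest TH1 effector library and 1 of 3 tested markers higher. That of 7 dendritic cell markers went from 0.397 to 2.26 CPM, with 2 of 2 tested markers higher. On reactivation the mean sum of the macrophage markers went from 5.83 to 17.2 CPM and that of the dendritic cell markers from 2.26 to 8.57 CPM. The sum of the B cell markers went from 10.5 to 1.19 CPM. The part of these cells in the MHC class II levels was not tested.

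Of 17 signalling genes downstream of CD28 and ICOS, 5 rose and 11 fell in activated naive cells, where 40.5% of all genes fell, with a median log2 fold change of -0.63. Cblb, an inhibitory ubiquitin ligase that CD28 signals restrain, rose from 146 ± 7.13 to 721 ± 118 CPM. Pik3cd, a catalytic subunit of the kinase that docks at the tyrosine motif printed above, fell from 978 to 76.8 CPM, and the adaptor gene Grap2 from 490 to 43.8 CPM. In TH1 effector against naive cells 2 rose and 12 fell (40.3% of all genes fell), with Akt1 (122 to 243.4 CPM) and Rltpr (257 to 73.3 CPM), the gene of a scaffold of CD28 signalling, as examples. On reactivation 4 rose and 8 fell (39.8% of all genes fell), with Cblb (194 to 370 CPM) and Grap2 (198 to 36.4 CPM) again among them.

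Of 9 genes of inhibitory signalling, 5 rose and 2 fell in activated naive cells, 2 rose and 5 fell in TH1 effector against naive cells, and 4 rose and 4 fell on reactivation. Ptpn11, the gene of SHP-2, rose from 120 ± 8.63 to 204 ± 7.24 CPM on reactivation, and Inpp5d, the gene of the lipid phosphatase SHIP-1, fell from 95.2 ± 13.5 to 38.0 ± 3.09 CPM. Of 11 genes of receptor trafficking, shedding and mRNA decay, 5 rose and 4 fell in activated naive cells, and 6 rose and 4 fell on reactivation. Lrba, which keeps CTLA-4 from degradation, fell from 112 to 46.1 CPM in activated naive cells and from 132 to 59.9 CPM on reactivation. Adam10 and Adam17, the proteases that shed LAG-3, rose on reactivation from 125 to 294 CPM and from 74.4 to 150 CPM. Of 6 tested genes of other inhibitory receptors, 2 rose in activated naive cells, Cd5 (169 to 1396 CPM) and Vsir (446 to 1894 CPM, listed as 4632428N05Rik), and 4 fell, such as Lair1 (11.6 to 0.425 CPM). In TH1 effector against naive cells 4 of the 6 fell, such as Cd96 (135 to 32.4 CPM).

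Finally, the genes whose log2 CPM ran most nearly parallel to each receptor gene over the 24 libraries were listed, out of 11188 genes with at least 1 CPM on average. As the libraries form 4 groups, Pearson's r mostly reflects the differences between groups. Pdcd1 was closest to Zc3h15 (r = 0.995), Gfod1 (0.99) and Slc29a1 (0.99). Ctla4 was closest to Tmem51, Rfc3 and Batf3 (each 0.98), and Icos to Fam162a, Maged1 and Lrrc32 (each 0.98). Among the closest genes to Lag3 were Rasal2 and Fbxw8 (each 0.99), and Havcr2 was closest to Cnih, Larp1b and Pkp4 (each 0.98). Cd160 ran with B4galt5 (0.98), with Crtam (0.97), whose means were 1.13, 14.6, 0.766 and 484 CPM, and with Nrp1 (0.97). Tigit ran with Txn1, Cox7b and Chac1 (each 0.99), and Cd226 with Tspan32, Ankmy2 and Als2cl (each 0.99). The closest genes were less close for Cd28 (Gpr65, 0.96, then Slc4a7 and Ptpn4) and for Btla (Gmfb, 0.95, then Tgs1 and Coa5), in the plot of levels by library the genes with the smallest steps.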

How the data were processed

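Each library was deposited by the authors as raw counts per gene symbol. Per the submitters' processing notes STAR, HTSeq, DESeq2 and the mm10 build were used; their roles, the annotation and the strand setting were not given in the sources used here. Per the labels' protocols the library kit keeps the strand. Groups came from the labels, and the 2 runs from the file names, each run holding 3 libraries of every group. The analysis used edgeR 4.0.16 in R 4.3.3 (filterByExpr, TMM, robust quasi-likelihood fit of all 24 libraries with group and run, Benjamini-Hochberg over all genes tested). The procedure was tested on simulated data. Alternatives were DESeq2 1.42.0, other scalings and filters, each run alone, no run term, a block on library numbers and libraries left out. Each SE comes from the spread of log2 CPM within group and run.

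The members and gene lists were chosen with earlier results of these data known. All 10 members are named. Of each list at most the 2 largest increases and decreases that reach 10 CPM in either group are named, and for each member the 3 most parallel genes. Some genes that these rules pick are not reported here. Pvrig, Trbc1, Trbc2 and Ighm were not analysed here. Coding sequence and exon lengths are from GENCODE M21, promoters from RefSeq GRCm38.p6.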

Additional observations from a re-analysis of the deposited data

Results flagged for a closer look

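In 3 of 40 sets of 6 libraries, 1 library of a gene stood apart, its gap to the next library taking more of the range of log2 CPM than Dixon's 95% limit allows, where chance gives about 1 in 20 sets. Icos in naive library 4 had 28.6 CPM, with a gap of 0.6311 of the range. Cd160 in naive library 5 had 1.54 CPM, with a gap of 0.6811. Cd160 in TH1 effector library 5 had 2.01 CPM, with a gap of 0.6503. Both Cd160 values came from number 5.

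For 9 genes the response of TH1 cells to reactivation and that of naive cells to activation differed in the interaction test of edgeR. The difference on the log2 scale was 5.60 for Cd160, 3.01 for Cd226, -0.60 for Btla, -0.82 for Cd28, -1.69 for Lag3, -3.38 for Pdcd1, -4.66 for Icos, -4.82 for Ctla4 and -5.54 for Tigit. For Icos and Ctla4 the response changed direction, up in naive cells and down in TH1 cells.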

How the results depend on the processing

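No value of the 10 genes that passed the test changed sign under an alternative. Among those that did not pass, the Cd28 difference between TH1 effector and activated naive libraries (0.13) became -0.0018 in the first run alone, and -0.11 once numbers 1 and 4 were dropped. It ran from -0.0246 (number 4 dropped) to 0.22 when 1 library number was left out. The Havcr2 difference of responses (0.43) became -0.26 in the first run alone. Of the values of single genes under the alternatives, 1203 kept their direction and their side of the threshold, 30 lost a call, 12 gained one and 4 changed sign. The count of the 10 genes that differed between reactivated TH1 and activated naive libraries was 9, but 5 in the second run alone (4 higher, 1 lower). It ran from 7 to 9 when 1 library number was left out. Leaving out numbers 5 and 6, or 1 and 4, was chosen after seeing the data. Scaling to library totals alone shifted the median of all genes by -0.17 on the log2 scale in activated naive against naive libraries, by -0.12 on reactivation, by 0.14 in TH1 effector against activated naive and by -0.15 in reactivated TH1 against naive libraries. No direction named above flipped with it.

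The library numbers were checked for pairing. Of 36 pairs of libraries with the same number, 35 had deviations from their group means that correlated above 0.1 (lowest 0.0755, median 0.206), and 23 of 24 libraries correlated best with their own number. As the labels do not say what the numbers share, this is a hint from the data only. With the number as a replicate block, 10, 10, 9, 9, 8, 10 and 9 of the 10 genes were called in the 7 comparisons, the last being the difference of responses. The block changed no call of the 10 genes, and in the first comparison the count over all genes went from 10303 to 10336.

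Depth limits Havcr2, Lag3 and Tigit in naive libraries, with 5, 35 and 21 counts in all.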
